A study of Mus musculus with 34 samples.

Results

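The aminoacyl-tRNA synthetase genes are described here, as they were expressed in mouse embryonic stem cells (mESCs) cultured with or without Royalactin after withdrawal of LIF. The set was chosen by gene symbol. It holds 36 genes, 20 for the cytosolic enzymes and 16, with symbols ending in 2, for the mitochondrial enzymes. These are 36 of the 23366 genes listed, and all 36 were among the 12993 genes expressed highly enough to be tested, those with a mean normalised count of at least 10. J1 is an established line of mESCs, LIF is the cytokine that keeps such cells undifferentiated in serum, and Royalactin is a honeybee protein of royal jelly. RNA-seq was available for 2 libraries of J1 cells in serum/-LIF and 2 libraries of J1 cells in serum/-LIF with Royalactin at 0.5 mg/ml. All 4 were grown on gelatin and carry the label of passage 40, whereas the text of the study places the RNA-seq cells at an earlier passage. The protocol speaks of replicate cultures without saying which library came from which, so p-values measure only the spread between these libraries. The libraries were made from total RNA depleted of ribosomal RNA.

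Each synthetase joins 1 amino acid to its tRNAs, the step that fixes the genetic code. Cytosolic and mitochondrial protein synthesis mostly use separate enzymes, all of which are encoded in the nucleus, and several cytosolic enzymes are held together in the multisynthetase complex. When amino acids are short or proteins misfold, the transcription factor ATF4 with a C/EBP partner activates many of the cytosolic synthetase genes together with genes of amino acid synthesis and transport.

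The word of that response, TGATGNAA, was searched on both strands of the RefSeq promoters (GRCm38.p6), from 250 bases before to 50 bases after each gene's start. It was found in 5 of the 13 cytosolic genes with a promoter entry and in 0 of the 14 mitochondrial genes with one, against 3.97% of all 32851 promoters. The other 9 members had no entry, among them Nars, Wars and Pars2. A match is a run of letters and not evidence of binding. The 5 promoters are shown from 120 bases before the start to 20 bases after it, 5′ to 3′ along the gene, with the word in capitals. TTGCATCA and TTTCATCA are the word read on the opposite strand.
Aars: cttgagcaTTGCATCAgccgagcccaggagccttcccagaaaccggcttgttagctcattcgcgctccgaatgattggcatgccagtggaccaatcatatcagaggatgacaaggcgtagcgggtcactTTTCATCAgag
Gars: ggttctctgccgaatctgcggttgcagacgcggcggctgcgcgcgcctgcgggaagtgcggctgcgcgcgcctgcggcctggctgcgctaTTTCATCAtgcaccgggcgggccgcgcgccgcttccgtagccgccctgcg
Iars: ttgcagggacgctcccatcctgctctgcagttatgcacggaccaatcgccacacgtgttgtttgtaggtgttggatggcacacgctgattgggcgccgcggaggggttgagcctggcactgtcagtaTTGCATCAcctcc
Tars: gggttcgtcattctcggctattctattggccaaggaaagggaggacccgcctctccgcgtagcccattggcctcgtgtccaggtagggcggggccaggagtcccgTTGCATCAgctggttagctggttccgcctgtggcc
Yars: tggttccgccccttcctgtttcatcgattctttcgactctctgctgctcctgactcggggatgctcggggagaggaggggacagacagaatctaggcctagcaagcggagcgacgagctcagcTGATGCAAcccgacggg
These windows lie at chr8:111033722-111033861 (Aars, plus strand), chr6:55037881-55038020 (Gars, plus), chr13:49682010-49682149 (Iars, plus), chr15:11399639-11399778 (Tars, minus) and chr4:129189783-129189922 (Yars, plus). Aars, for alanine, held the word at 2 positions, -112 and 10, counted from the start as 1. The word began at -30 in Gars (glycine), at 8 in Iars (isoleucine), at -15 in Tars (threonine) and at 4 in Yars (tyrosine). The E-box word CACGTG, which Myc and Max bind, was in 4 of the 13 cytosolic promoters (Aars, Farsb, Iars and Tars), in 1 of the 14 mitochondrial promoters (Ears2) and in 7.15% of all promoters, and it did not overlap the first word in any member.

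Each deposited value was a read count divided by a factor for its library, called a normalised count below. The libraries held 14737796 to 17597818 reads on genes, of which Rn45s, the ribosomal RNA precursor, took 9.08% to 46.6%, so that 7878527 to 15999458 reads were left for other genes. All 10 stem cell markers examined passed the filter on low values in these cells, and 3 of them, Sox2, Zfp42 and Esrrb, were called higher with Royalactin. Of the 10, 5 were higher in both Royalactin libraries (19.7% of all genes) and 3 overlapped. The other 2, Tdgf1 and Lin28a, were lower in both (18.9% of all genes), by -0.45 and -0.19 on the log2 scale. Among the 10 fibroblast markers, Postn and Pdgfrb were at 0 in all 4 libraries. Their summed normalised count was 2141 and 1057 in serum/-LIF and 6137 and 3278 with Royalactin, most of it Fn1. The scarce markers Dcn, Col1a1 and Col3a1 were lower in both Royalactin libraries, with Dcn at 37.4 and 31.1 against 0 and 0 and Col1a1 at 12.0 and 11.4 against 0 and 4.13. Of the 5 neural markers 4 passed the filter, and all 4 were higher with Royalactin, 2 of them in both Royalactin libraries (19.7% of all genes). Those 2 were Pax6, at 93.6 and 79.7 against 172 and 171, and Tubb3, at 377 and 379 against 484 and 708. Of the 5 endoderm markers only Gata4 passed, at 28.1 and 8.28 against 49.3 and 44.7, and of the 3 blood markers 0 passed. None of these was called. The part of these markers in the results below was not tested. In bulk libraries, a change in the share of a cell type and a change of RNA per cell cannot be told apart.

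No synthetase gene changed past the test. With limma and Benjamini-Hochberg adjustment over all genes, 0 of 36 had an adjusted p under 0.05, where 0.493% of all tested genes did (64 genes, 43 higher and 21 lower with Royalactin). At an unadjusted p under 0.05 there were again 0 of 36, against 9.34% of all genes. No member passed an unadjusted p under 0.05 together with a 2-fold difference, against 7.13% of all genes. edgeR's quasi-likelihood test on the recovered reads also called 0 members, with 0 at an unadjusted p under 0.05, and called 55 genes in all. The median size of the difference, without its sign, was 0.15 on the log2 scale over the 36 members and 0.40 over all tested genes. The 95% interval of the difference lay within 2-fold in either direction for 22 of the 36 members and for 3053 of the 12993 tested genes, so for the other 14 a 2-fold difference was within reach of the error. In 29 of the 36 the replicates of 1 group lay further apart than the groups did.

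The levels of the libraries did not overlap in 8 members. Farsa, Iars2, Pars2 and Wars2 were higher in both Royalactin libraries, which is 4 of 36 beside 19.7% of all genes. Farsb, Iars, Nars and Wars were lower in both, 4 of 36 beside 18.9% of all genes. Both shares were below the background, and the other 28 members overlapped.

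**Figure D1:**
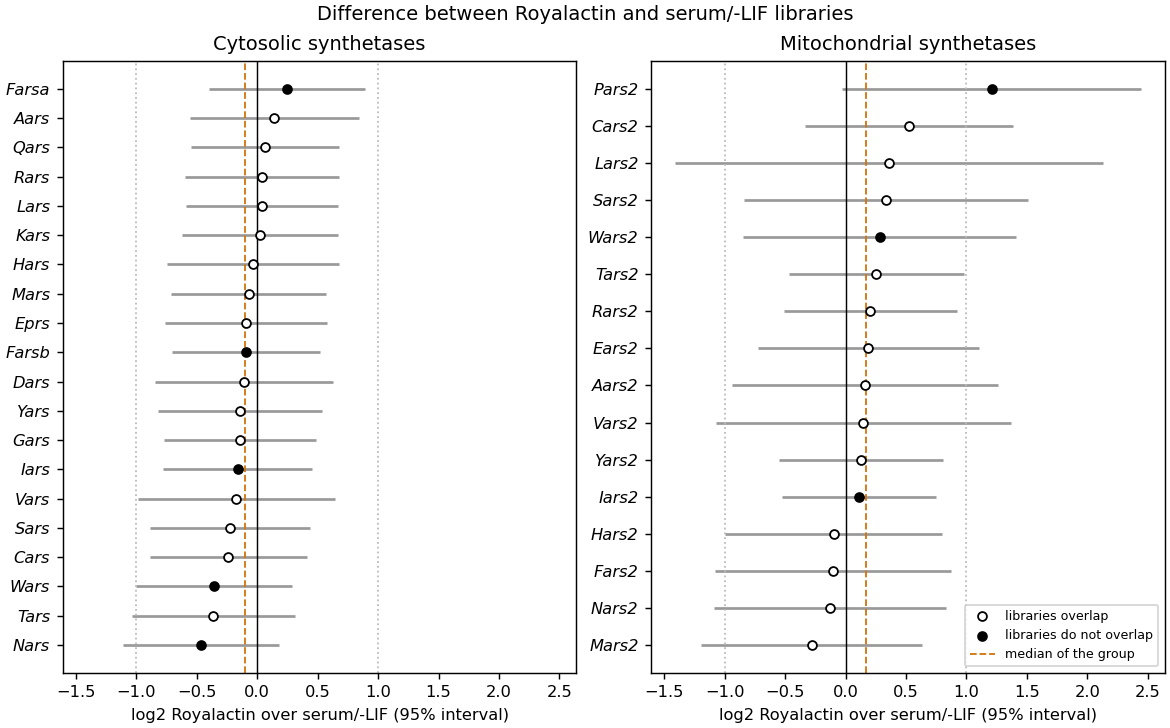
The log2 difference between Royalactin and serum/-LIF libraries (horizontal axis, point with its 95% interval) is plotted for the 20 cytosolic and the 16 mitochondrial genes. Filled points are genes whose libraries do not overlap, dashed lines are the group medians at -0.10 and 0.17, and dotted lines mark a 2-fold difference. Every interval includes 0.

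The cytosolic genes differed by small amounts, more often downwards. On the log2 scale, on which higher and lower are counted throughout, the mean was lower with Royalactin in 14 of 20 and higher in 6, with a median log2 difference of -0.10 and a range from -0.46 to 0.25. Over all tested genes 50.6% were lower and the median was -0.01. For 17 of the 20, the interval lay within 2-fold in either direction, and over the 20 genes the bounds ran from -1.11 to 0.89. The direction rested on the libraries used: without serum/-LIF + Royalactin replicate 1 the median was 0.00 with 9 of 20 lower, and without serum/-LIF + Royalactin replicate 2 it was -0.18 with 17 of 20 lower.

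Nars, which charges tRNA with asparagine, had the lowest difference of the cytosolic group. It measured 3892 and 5138 normalised counts in serum/-LIF and 2980 and 3523 with Royalactin. Both Royalactin libraries were thus below both serum/-LIF libraries, with a log2 difference of -0.46 (SE 0.30, interval -1.11 to 0.18, limma adjusted p = 0.685). Tars, for threonine, had 2921 and 4609 in serum/-LIF and 2681 and 3036 with Royalactin. Its serum/-LIF replicate 2 stood alone at the top and the groups overlapped (log2 difference -0.36, interval -1.04 to 0.31). Wars, for tryptophan, an enzyme whose human form is known to be induced by interferon, had 1490 and 1352 in serum/-LIF against 966 and 1271. The groups did not overlap, but the Royalactin replicates lay further apart than the group means (log2 difference -0.36, interval -1.0 to 0.29).

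The phenylalanine enzyme is built of 2 kinds of subunit, and the genes of its subunits went in opposite directions. Farsa, the alpha subunit, had 958 and 909 normalised counts in serum/-LIF and 1024 and 1201 with Royalactin, the highest difference of the cytosolic group at 0.25 on the log2 scale (interval -0.40 to 0.89). Farsb, the beta subunit, had 1948 and 1992 against 1798 and 1898, a log2 difference of -0.09 (interval -0.70 to 0.52). Neither pair of groups overlapped, and both intervals included 0. The exons of Farsb share 265 bases with Sgpp2 on the other strand, and whether reads were counted by strand is not given in the sources used here.

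After Farsa, the highest differences were those of Aars and Qars. Aars had 4226 and 2722 in serum/-LIF and 3124 and 4474 with Royalactin, so that the groups overlapped (log2 difference 0.14, interval -0.56 to 0.84). Qars, for glutamine, had 1694 and 1822 against 1857 and 1814, 4 libraries close together (log2 difference 0.06, interval -0.55 to 0.68). The remaining cytosolic genes lay between -0.24 (Cars, for cysteine) and 0.04 (Rars, for arginine), with adjusted p from 0.858 to 0.991.

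The 8 cytosolic synthetases of the multisynthetase complex (Dars, Eprs, Iars, Kars, Lars, Mars, Qars and Rars) had small differences. Of these, 4 were higher and 4 lower, with a median log2 difference of -0.03, a median size of 0.07 and a largest size of 0.16 in Iars. All 8 intervals lay within 2-fold. Eprs, a single protein that charges both glutamate and proline tRNA, had 7137 and 9008 normalised counts in serum/-LIF and 7140 and 7929 with Royalactin. Dars, for aspartate, had the widest replicates, 2696 and 5281 in serum/-LIF against 3649 and 3357. Of the 12 cytosolic genes outside the complex 10 were lower, with a median of -0.16, and 9 of the 12 intervals lay within 2-fold.

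The proteins without enzyme activity that hold the complex together did not pass the test either (0 of 3). Aimp1 had 1205 and 2633 normalised counts in serum/-LIF and 1147 and 1513 with Royalactin (log2 difference -0.44, interval -1.23 to 0.35). Eef1e1 had 1261 and 2892 against 1487 and 1563 (log2 difference -0.33, interval -1.11 to 0.46). In both genes serum/-LIF replicate 2 stood above the other 3 libraries. Aimp2, the third, differed by 0.00 (interval -0.69 to 0.70).

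The mitochondrial genes differed by small amounts in the other direction. The log2 mean was higher with Royalactin in 12 of 16, of which Lars2 and Vars2 had the lower mean in normalised counts, with a median log2 difference of 0.17 and a range from -0.28 to 1.21, and without Lars2 in 11 of 15 with a median of 0.16. Their intervals were wider, with 5 of 16 within 2-fold. They were counted with 49 to 1554 reads per library, Lars2 apart, and the cytosolic genes with 679 to 11519. The part of read number in the width of the intervals was not tested. This direction also rested on the libraries used. Without serum/-LIF + Royalactin replicate 2 the median was 0.01 with 8 of 16 higher, and without serum/-LIF + Royalactin replicate 1 it was 0.25 with 14 of 16 higher. Without serum/-LIF replicate 2 it was 0.09 with 9 of 16 higher, and without serum/-LIF replicate 1 it was 0.14 with 12 of 16 higher.

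Pars2, the mitochondrial proline enzyme, showed the largest difference of all 36 genes. It had 65.5 and 50.7 normalised counts in serum/-LIF and 114 and 159 with Royalactin, 2.31-fold on the log2(value + 1) scale. The groups did not overlap, with the Royalactin libraries the higher. The log2 difference of 1.21 had an SE of 0.58, an interval from -0.03 to 2.45 and a limma p of 0.0552 (adjusted p = 0.549). Pars2 was also among the scarcest members, and the 49 reads of each serum/-LIF library were the fewest of any member in any library. The gene lies at chr4:106323674-106327887 (mm9), in 2 exon blocks that overlap no other annotated exon.

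Cars2, for cysteine, came next with 214 and 407 normalised counts in serum/-LIF and 406 and 444 with Royalactin. Its serum/-LIF replicate 1 was low and the other 3 libraries were alike, and the groups overlapped (log2 difference 0.52, interval -0.34 to 1.39). The lowest mitochondrial difference was that of Mars2, for methionine, with 249 and 358 against 186 and 324 (log2 difference -0.28, interval -1.20 to 0.64). Nars2 had 257 and 178 against 159 and 240 (log2 difference -0.13, interval -1.09 to 0.83). Fars2, the mitochondrial phenylalanine enzyme, had 186 and 199 against 139 and 229 (log2 difference -0.11, interval -1.08 to 0.87). The groups of these last 3 genes overlapped. The other mitochondrial genes, Lars2 apart, had log2 differences from -0.10 (Hars2, for histidine) to 0.33 (Sars2, for serine).

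Lars2, the mitochondrial leucine enzyme, stood apart from every other member in level. It had 331739 and 53070 normalised counts in serum/-LIF and 233296 and 124125 with Royalactin, 0.348% to 1.68% of the reads of a library. Its mean level per kb of transcript was 47812, against 539 for the next mitochondrial gene, Yars2. The serum/-LIF libraries differed 6.25-fold and enclosed both Royalactin libraries, so that the log2 difference of 0.36 had an interval from -1.41 to 2.13 (adjusted p = 0.93). Rn45s had 9206979 and 3289366 normalised counts in serum/-LIF and 6612824 and 1100219 with Royalactin. Replicate 1 was thus the higher library of both groups for both genes, but the ratio of Rn45s to Lars2 ran from 8.86 to 62.0. When the exons of Lars2 were cut into windows of 75 bases, the read length, 12 of 103 (11.7%) also matched elsewhere in mm9 with at most 2 mismatches. These 12 lay within 375 bases near the 3′ end, at chr9:123370917-123371291 of a gene that ends at 123371782. The count of Lars2 may hold reads of ribosomal RNA, so its level may not be that of its own messenger RNA. With 1 value per gene, where on Lars2 the reads fell was not tested.

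**Figure D2:**
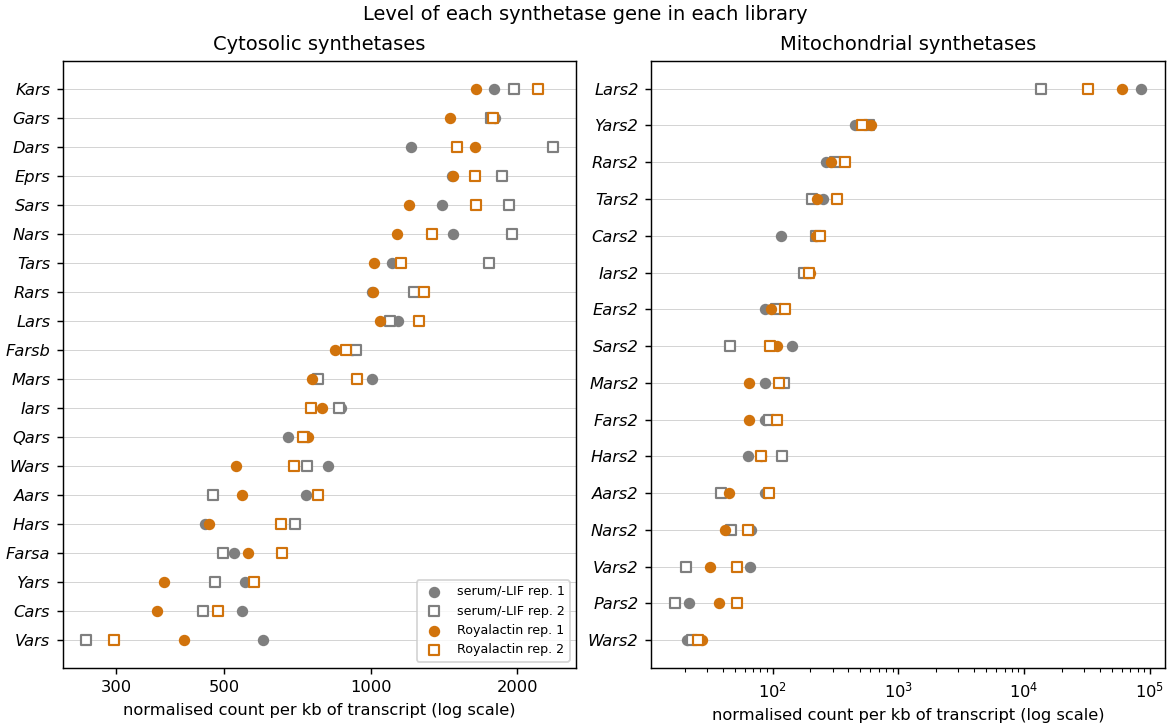
The normalised count per kb of transcript (horizontal, log scale) is plotted for each gene in each of the 4 libraries, with genes in order of their mean. Cytosolic genes run from 392 (Vars) to 1906 (Kars) in the mean, whereas mitochondrial genes other than Lars2 run from 24.2 (Wars2) to 539 (Yars2).

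Levels between genes were compared per kb, over the length of the coding transcript with the longest coding sequence. The 20 cytosolic genes had mean levels from 392 (Vars, for valine) to 1906 (Kars, for lysine), with a median of 883. The 15 mitochondrial genes without Lars2 had mean levels from 24.2 (Wars2) to 539 (Yars2), with a median of 96.8. Besides Lars2, Yars2 was the 1 mitochondrial gene above the lowest cytosolic gene. Kars and Gars, whose genes are known to encode the mitochondrial enzyme as well as the cytosolic one, were the highest cytosolic genes at 1906 and 1701 per kb. Their libraries overlapped, with 1794 and 1972 against 1646 and 2211 for Kars and 1796 and 1767 against 1455 and 1786 for Gars. Dars, next at 1679 per kb, had 1208 and 2367 against 1636 and 1505. The order of these neighbours was thus within their spread.

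Cytosolic and mitochondrial genes were paired by symbol, which gave 15 pairs, 14 without Lars and Lars2. Fars2 was paired with both Farsa and Farsb. Eprs, whose symbol matches neither Ears2 nor Pars2, was left out of the pairs. Its log2 difference was -0.09, against 0.19 for Ears2 and 1.21 for Pars2, so those signs were opposite too. In 13 of the 14 the cytosolic gene had the higher level per kb in all 4 libraries, and the median ratio over the 14 was 7.79. The ratio of the means over the 4 libraries was greatest for tryptophan (28.7, Wars over Wars2) and asparagine (26.8, Nars over Nars2), but the order changed between libraries, and in serum/-LIF replicate 2 serine had the highest ratio (42.2, Sars over Sars2). Tyrosine was the exception, with ratios of Yars to Yars2 of 1.22 and 0.82 in serum/-LIF and 0.62 and 1.12 with Royalactin, on either side of 1 in both groups.

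**Figure D3:**
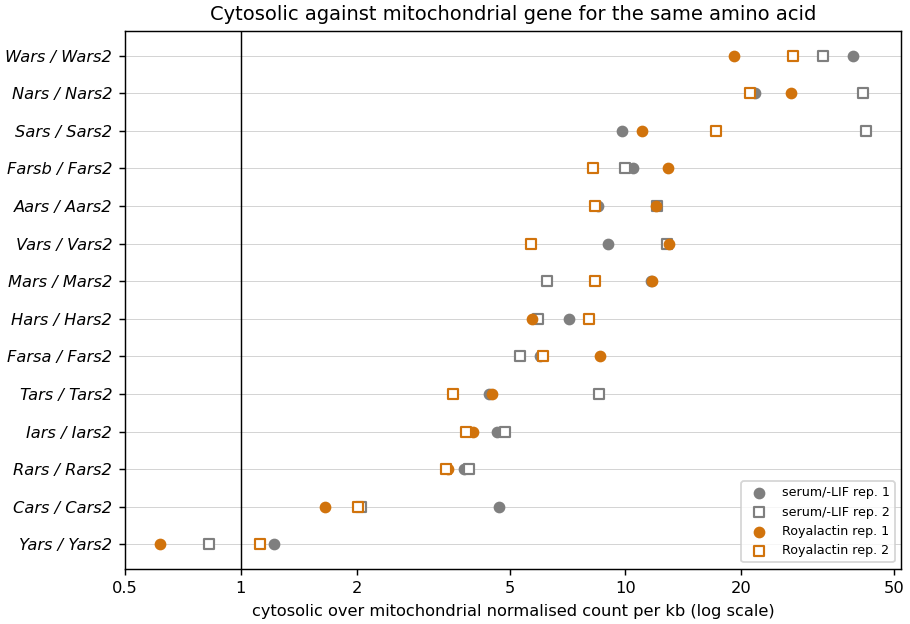
The ratio of the cytosolic to the mitochondrial level per kb (horizontal, log scale) is plotted for 14 pairs in each library. All ratios but those of Yars to Yars2 lie above 1, and the libraries of a group are often as far apart as the groups, as for Sars over Sars2 at 9.79 and 42.2 in serum/-LIF.

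Within the pairs formed by symbol, the log2 difference of the cytosolic gene was below that of the mitochondrial gene in 11 of 15, and 8 of 15 had opposite signs. The 11 include Lars and Lars2, at 0.04 and 0.36, although the count of Lars2 may hold reads of ribosomal RNA. In 3 of the 8 with opposite signs at least 1 member had libraries that did not overlap. Of all single genes, 19.7% were wholly higher and 18.9% wholly lower with Royalactin, so such pairs were not rare. Wars over Wars2 was 39.0 and 32.6 in serum/-LIF and 19.2 and 27.2 with Royalactin, with Wars2 itself at 92.3 and 100 normalised counts against 122 and 113 (log2 difference 0.28, interval -0.85 to 1.41). Iars over Iars2 was 4.63 and 4.85 against 4.0 and 3.85. Iars had 3842 and 3813 normalised counts in serum/-LIF and 3509 and 3334 with Royalactin (log2 difference -0.16, interval -0.78 to 0.45). Iars2 had 1026 and 972 against 1083 and 1070 (log2 difference 0.11, interval -0.53 to 0.74). In the isoleucine pair both genes had non-overlapping libraries and replicates close together, yet each difference was far smaller than its interval. The third, Farsa over Fars2, had ratios of 5.99 and 5.32 against 8.58 and 6.10, in the other direction from these 2 pairs. Of the windows of Iars, 19.2% also matched 1 other place on chromosome 1, and 2018 bases of the exons of Iars2 overlap Rab3gap2 on the other strand.

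Summed over genes, the cytosolic group had 57819 and 63181 normalised counts in serum/-LIF and 51314 and 60091 with Royalactin. The mitochondrial group without Lars2 had 5165 and 5197 against 5241 and 6155. The ratio of the sums was 11.2 and 12.2 in serum/-LIF and 9.79 and 9.76 with Royalactin. It was thus lower in both Royalactin libraries, as were 18.9% of all single genes. The cytosolic sum includes Kars and Gars, whose genes encode the mitochondrial enzyme too, so the ratio does not cleanly separate the compartments. The genes were chosen with earlier results of these data known, so no test is given for a sum over them.

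The spread between replicates differed with the base composition of the genes. In serum/-LIF, 5 members had replicates more than 2-fold apart, each with replicate 1 the higher: Lars2, Vars2 (3.27-fold), Sars2 (3.14-fold), Vars (2.30-fold) and Aars2 (2.21-fold). The last 4 were the 4 members with the highest GC content in their exons, 58.4% to 60.3%, where the other 31 apart from Lars2 had 41.7% to 56.7% and ratios of replicate 1 to replicate 2 from 0.511 to 1.55. Across the 35 genes without Lars2, the GC content and the log2 ratio of the serum/-LIF replicates had a Pearson r of 0.67, and across 12760 tested genes r was 0.26. These points share the same pair of libraries, and genes are not independent replicates. Between the Royalactin replicates r was -0.24 over the 35 and -0.12 over all genes, and Aars2 alone was more than 2-fold apart. After each library was corrected for GC content and exon length, the median gap between the serum/-LIF replicates of these 4 genes went from 1.42 to 0.58 on the log2 scale and that of the other 31 from 0.29 to 0.27. The correction was fitted to the genes of these same libraries, so a smaller gap in genes of high GC content was largely built in. The cause of the spread was not tested.

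**Figure D4:**
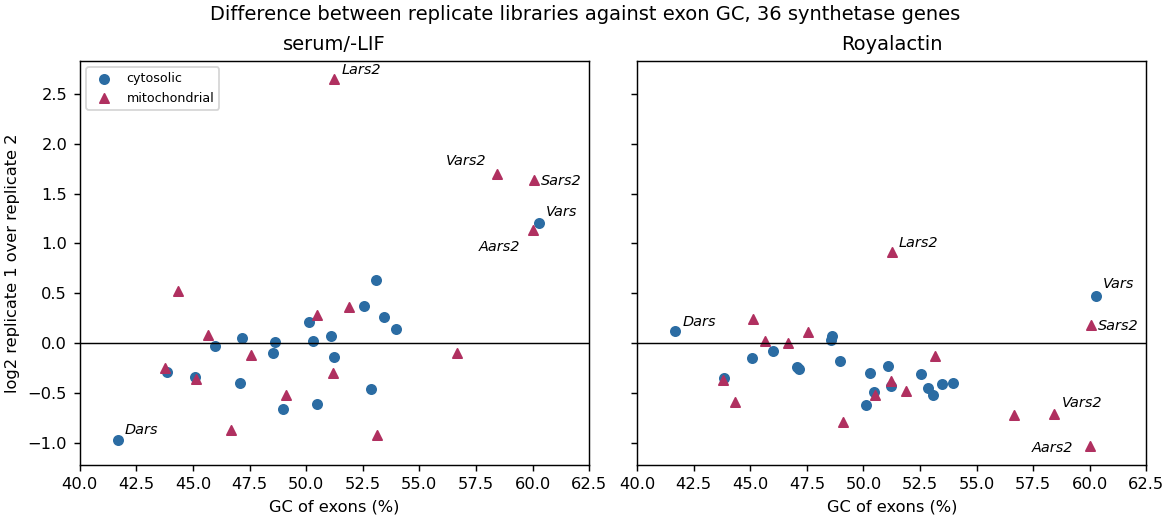
The log2 ratio of replicate 1 to replicate 2 (vertical) is plotted against exon GC content (horizontal, percent) for the 36 genes, for serum/-LIF on the left and Royalactin on the right. Vars, Aars2, Sars2 and Vars2, at 58.4% GC or more, lie above 1 in serum/-LIF and on both sides of 0 with Royalactin.

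None of these 4 genes differed between groups beyond this spread. Vars had 2427 and 1054 normalised counts in serum/-LIF and 1672 and 1203 with Royalactin (log2 difference -0.17, interval -0.99 to 0.64). Aars2 had 290 and 131 against 152 and 312 (log2 difference 0.16, interval -0.94 to 1.26). Sars2 had 266 and 84.9 against 202 and 178 (log2 difference 0.33, interval -0.84 to 1.51). Vars2 had 294 and 90.0 against 141 and 231 (log2 difference 0.15, interval -1.07 to 1.37). In Vars, Sars2 and Vars2 the serum/-LIF libraries enclosed both Royalactin libraries, and in Aars2 the groups overlapped.

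Synthetases are also divided by the fold of their catalytic domain into class I and class II, and each class held differences of both signs. The median log2 difference was 0.05 over 18 class I genes, 11 of them higher, and -0.09 over 17 class II genes, 7 of them higher. Eprs, which has a domain of each class, was left out. Among the cytosolic genes alone it was -0.14 over 9 of class I and -0.10 over 10 of class II.

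Of the cytosolic synthetases, 12 are known targets of ATF4. Among these, 10 were lower with Royalactin, with a median log2 difference of -0.15, and 0 of 12 passed the test. The other 8 cytosolic genes had a median of -0.01, with 4 lower. The 5 genes whose promoters are printed above, all among the 12, had log2 differences of -0.36 (Tars), -0.16 (Iars), -0.14 (Gars), -0.14 (Yars) and 0.14 (Aars), none past the test. The list of 23 further genes, ATF4 itself and its targets in amino acid synthesis, transport and stress, had larger differences. Of these 19 were lower, with a median of -0.50, 12 had Royalactin libraries wholly below serum/-LIF (background 18.9%), and 0 passed the adjusted test. At an unadjusted p under 0.05 there were 7 (background 9.34%), and 6 of these were also 2-fold. Both counts include Nupr1, which was higher with Royalactin.

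Slc7a11, the cystine transporter, had 100 and 98.3 normalised counts in serum/-LIF and 31.2 and 17.9 with Royalactin (log2 difference -2.02, interval -3.60 to -0.45, limma adjusted p = 0.377). Ddit3, a stress-induced transcription factor also called Chop, had 90.9 and 85.9 against 17.1 and 28.9 (log2 difference -1.94, limma adjusted p = 0.415). A stretch of 68 bases of its exons overlaps Mars on the other strand. Nupr1 went the other way, with 17.4 and 0 in serum/-LIF against 45.3 and 84.7. Sesn2 had 774 and 242 against 644 and 607, so that its groups overlapped.

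The listed genes of cytosolic elongation and of mitochondrial translation did not pass the test either. Of the 6 cytosolic elongation factors 0 were called and the groups of all 6 overlapped, with a median of 0.02. Eef1b2 had the lowest difference at -0.42 (interval -1.27 to 0.42), followed by Eif5a at -0.06, and Eef1g and Eef2 had the highest at 0.13 and 0.12. Of the genes of mitochondrial translation, 13 of 14 were in the table, 0 were called and 9 were higher, with a median of 0.17, the same to 2 decimals as the mitochondrial synthetases. Pet112, a subunit of the amidotransferase that makes glutaminyl-tRNA from the product of Ears2, had 246 and 148 normalised counts in serum/-LIF and 272 and 294 with Royalactin (log2 difference 0.56, interval -0.35 to 1.48). Gatc, another subunit of that enzyme, had 110 and 95.2 against 107 and 27.5 (log2 difference -0.90, interval -2.42 to 0.62). Ears2 itself had 178 and 219 against 197 and 257 (log2 difference 0.19, interval -0.73 to 1.10). Genes of this 1 route thus had means on both sides of 0, with every interval including 0. Mtif3, an initiation factor, differed by 0.48 (interval -0.65 to 1.61) and Mtrf1l, a release factor, by -0.53 (interval -1.73 to 0.67).

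RNA polymerase III transcribes the tRNA genes. Of its 19 genes for subunits and factors 0 were called, 15 were higher and 4 lower, with a median log2 difference of 0.19, and 8 were wholly higher with Royalactin (background 19.7%). Polr3gl, a subunit with a paralogue in Polr3g, had 12.0 and 21.7 normalised counts in serum/-LIF and 57.3 and 61.3 with Royalactin (log2 difference 1.81, interval -0.10 to 3.71). Polr3g itself had 1284 and 2135 against 1247 and 1417 (log2 difference -0.32, interval -1.01 to 0.38). Polr3gl was thus scarce in serum/-LIF, and its difference was uncertain (SE 0.89, limma adjusted p = 0.573). Polr3b, the subunit that forms the catalytic core with Polr3a, had 901 and 681 against 1406 and 1204 (log2 difference 0.73, interval 0.07 to 1.40, limma adjusted p = 0.474). Polr3k had 449 and 929 against 551 and 523 (log2 difference -0.27, interval -1.08 to 0.55).

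**Figure D5:**
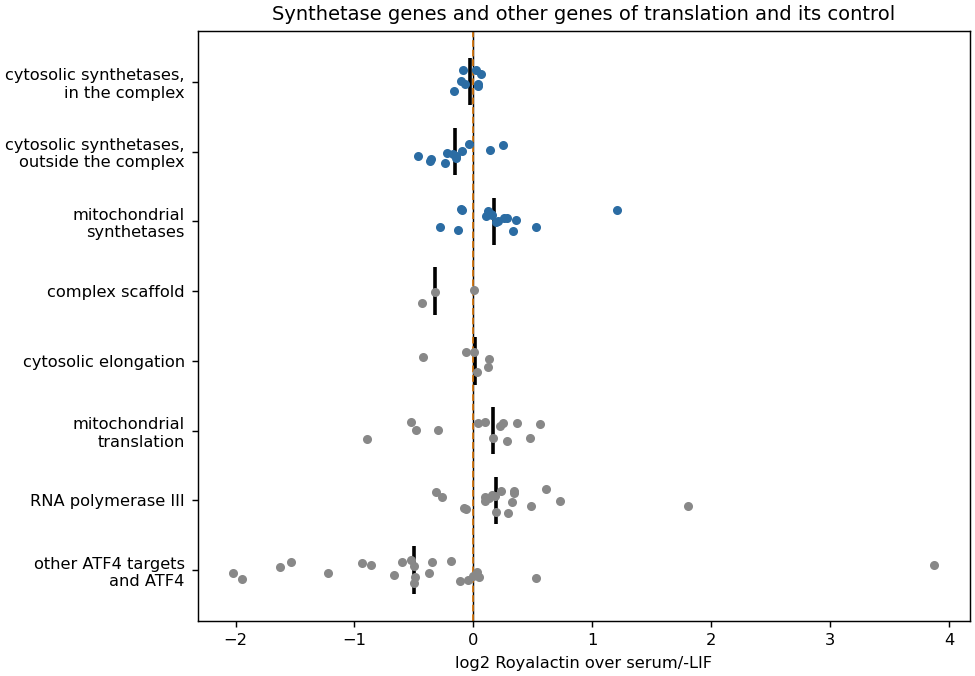
The log2 difference between Royalactin and serum/-LIF (horizontal) is plotted for each gene of the synthetase groups (blue) and of 5 related lists (grey), with black bars at the medians and a dashed line at the median of all tested genes, -0.01. The cytosolic synthetases of the complex lie within 0.16 of 0, and the ATF4 list has the lowest median, -0.50.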

How the data were processed

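The 4 RNA-seq libraries of J1 mESCs were analysed, 2 without and 2 with Royalactin. ATAC-seq and the serum/+LIF condition were not used here. After alignment with Tophat to mm9 and counting by HTSeq-count, the authors deposited gene counts scaled by DESeq size factors (a signal). How counting treated strand, and with which annotation, is not given in the sources used here. All values (100%) were whole multiples of 1 step per library to within 0.01 of a read, and read numbers are values divided by that step.

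Differences were tested on log2(normalised count + 1) with limma 3.58.1 in R 4.3.3 (trended variance, two-sided, Benjamini-Hochberg adjustment), taking the 12993 genes whose mean normalised count reached 10 and no block, after the test was checked on simulated data. A gene was called at an adjusted p under 0.05. The study selected genes at a p of 0.05 with a 2-fold change, which is the second rule. edgeR 4.0.16 was run on the recovered reads as an alternative. Replicate 1 with Royalactin has a step of 1.01, so close to 1 that whole reads are less surely recovered there. Alternatives changed the pseudocount, filter, scaling, variance trend, block, GC and length correction, and libraries. GC content, lengths and overlaps came from the GENCODE annotation of mm9. Exon windows of 75 bases were matched to mm9 with minimap2 2.31-r1302.

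The members and lists were chosen with earlier results of these data known. Described in full are members called or past the second rule, the 3 highest and 3 lowest differences in each group, and Lars2. Pairs by symbol were added where the signs were opposite and a member had libraries that do not overlap. Of other lists, the 2 highest and 2 lowest are named. Further members, such as the 4 with the highest GC content, Dars, Eprs and Ears2, were chosen after their values were seen. Counting intervals are not given, since the error is that between libraries.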

Additional observations from a re-analysis of the deposited data

How the results depend on the processing

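The number of synthetase genes called was 0 in the main test and in all 16 alternatives, with a lowest adjusted p of any member between 0.227 and 1. The number of all genes called ran from 0 to 780 over the same settings, so the strength of the test depended on them. The number with an unadjusted p under 0.05 and a 2-fold difference was 0 and became 1 without the variance trend, with GC and length correction, and with that correction plus the replicate block. That gene was Pars2, with a limma p of 0.0296, 0.0473 and 0.0482 in turn. Leaving out 1 library at a time gave 0 to 2 such genes, the 2 being Pars2 and Sars2 without serum/-LIF replicate 1. In those fits the lone library of a group is assumed to vary like the others. The median log2 difference of the cytosolic genes ran from -0.18 to 0.00 and that of the mitochondrial genes from 0.01 to 0.25 when 1 library was left out. Scaling moved the median log2 difference of all genes from -0.01 to 0.05 at most. With 2 libraries a group, the intervals of 14 of the 36 genes reached past 2-fold.

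With the replicate number as a block (replicate block), 391 genes were called in place of 64, 0 of them synthetase genes, and the lowest adjusted p of a member was 0.415 (Pars2). Libraries of the same number correlated at 0.085 in their deviations from the group means, so the numbers were not taken to pair the libraries.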
